A study of Mus musculus with 49 samples.

Results

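The 8 genes described here were the 6 enzymes of the urea cycle and its supply of cofactor (Nags, Cps1, Otc, Ass1, Asl and Arg1), the mitochondrial ornithine carrier Slc25a15 and the second arginase, Arg2. They were taken by symbol from the table of UMI counts, in which all 8 were found among 46078 gene identifiers, and they were followed through 49 libraries of 16 conditions. All cells came from C57BL/6J wild-type mice. Hepatocytes from livers of 10-week-old mice were sequenced when freshly isolated (FH, n = 3), at 3 h and at 1, 2, 4, 7 and 14 days of monolayer culture with EGF at 20 ng/mL (n = 3 each), and after 7 days with verteporfin at 0.3 µM or with the vehicle DMSO (n = 2 each). Passaged dedifferentiated hepatocytes (dediHeps, n = 5), aggregates made from them in low-attachment wells (dediHep aggregates, n = 3), dediHep-derived spherical organoids in Matrigel (dediHep-SOs, n = 3) and dediHep-derived budding organoids (dediHep-BOs, n = 3), whose cells carried a retrovirus for the intestinal factor Cdx2, formed the dediHep groups. Chemically induced liver progenitors (CLiPs, n = 3) are hepatocytes dedifferentiated with small molecules in serum-free culture. The intestinal references were spherical organoids of fetal intestinal progenitor cells at E13.5 (FIPC-SOs, n = 3) and budding organoids from crypts of 10-week-old mice (ISC-BOs, n = 4). Spherical and budding organoids also differed in medium, since Wnt3a and CHIR99021 are left out for budding, so that medium, Cdx2 and organoid form cannot be told apart for the dediHep organoids, nor medium and developmental age for the intestinal ones.

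The urea cycle turns ammonia into urea. In the mitochondrion, Nags makes the activator that Cps1 needs, Cps1 joins ammonia and bicarbonate into carbamoyl phosphate, Otc transfers this to ornithine to give citrulline, and Slc25a15 exchanges ornithine and citrulline across the inner membrane. In the cytosol, Ass1 and Asl turn citrulline into arginine, and Arg1 splits arginine into urea and ornithine. Hepatocytes, above all those around the portal vein, hold the complete cycle, whereas the epithelium of the small intestine is known for the mitochondrial steps, by which it makes citrulline, and Arg2 is a mitochondrial arginase of extrahepatic tissues such as gut and kidney.

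In GENCODE M21 on GRCm38, the members lay at chr1:67123026-67231259 (Cps1, plus strand), chrX:10252305-10321024 (Otc, plus), chr2:31470207-31520672 (Ass1, plus), chr5:130011258-130029247 (Asl, minus), chr10:24915221-24927484 (Arg1, minus), chr12:79130777-79156301 (Arg2, plus), chr11:102145513-102149477 (Nags, plus) and chr8:22375551-22398597 (Slc25a15, minus). RefSeq promoter windows on GRCm38.p6 were at hand for 4 of the 8 members. That of Slc25a15, which rose from dediHep-SOs to dediHep-BOs, is not printed. Those of Otc and Nags, which also rose there, and of Ass1, which fell there, are printed 5′ to 3′ up to the annotated start, with CG dinucleotides in capitals.
Otc, chrX:10252055-10252304, plus strand: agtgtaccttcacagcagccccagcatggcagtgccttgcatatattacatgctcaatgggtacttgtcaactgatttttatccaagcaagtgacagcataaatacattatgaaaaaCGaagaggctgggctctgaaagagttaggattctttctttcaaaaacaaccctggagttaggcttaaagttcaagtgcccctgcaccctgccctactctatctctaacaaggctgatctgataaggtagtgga
Nags, chr11:102145263-102145512, plus strand: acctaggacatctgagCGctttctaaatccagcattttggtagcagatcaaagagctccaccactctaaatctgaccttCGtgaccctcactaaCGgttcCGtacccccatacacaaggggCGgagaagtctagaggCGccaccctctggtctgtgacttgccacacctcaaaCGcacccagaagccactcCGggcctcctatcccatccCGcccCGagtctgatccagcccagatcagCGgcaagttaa
Ass1, chr2:31470020-31470206, plus strand: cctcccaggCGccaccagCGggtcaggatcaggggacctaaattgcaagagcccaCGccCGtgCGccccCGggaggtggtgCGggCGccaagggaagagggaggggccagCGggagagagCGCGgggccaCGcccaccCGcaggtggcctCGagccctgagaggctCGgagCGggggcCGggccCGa
These upstream sequences differ in base composition. The 250 bases of Otc were 43.6% G or C with 1 CG, the 250 bases of Nags were 55.6% G or C with 11, and the 187 bases of Ass1 were 75.4% G or C with 18, whereas the median over the 250 upstream bases of 32851 windows was 52.4% with 6. None of the 3 sequences held an exact match, on either strand, to TATAAA, to the C/EBP letters TTGCNNAA or to the HNF4 letters CAAAGTCCA, which were found upstream in 12.4%, 9.56% and 0.384% of all windows.

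Levels are given as CPM, counts scaled to a common library size with TMM factors over all 49 libraries, and values after ± are SDs between libraries unless marked SE. Library totals ran from 861047 to 3872936 counts, and a floor of 3 counts in a library was 0.630 to 4.11 CPM. A gene was called when the quasi-likelihood test of edgeR gave a false discovery rate (FDR, Benjamini-Hochberg) below 0.1 together with a log2 fold change past 2 in either direction, and log2 fold changes come from the fit of that comparison. Beyond the culture names of dediHeps and what was grown from them, nothing in the labels says that replicates were separate animals or cultures, so that p-values measure the spread between these libraries. The sum of 6 hepatocyte markers was 17359 to 22813 CPM in FH and 1007 to 4708 CPM in dediHeps, and the sum of 9 intestinal markers was 3117 to 3887 CPM in ISC-BOs and 3005 to 3613 CPM in dediHep-BOs against 35.2 to 422 CPM in dediHeps and 157 to 222 CPM in FH, where Cdx1, Cdx2 and Vil1 were at 0. FH also held markers of other liver cells, at 57.8 to 222 CPM over 6 macrophage genes and 183 to 318 CPM over 5 endothelial genes, all of them detected, while the endothelial sum was 3.52 to 8.11 CPM at 14 days and at most 0.502 CPM in dediHeps, where Adgre1 and Marco were at 0. At 14 days the macrophage sum was 6.95 to 201 CPM and that of 5 stellate cell genes 17.4 to 92.1 CPM, against 55.7 to 103 CPM in FH. The sum of 5 cholangiocyte markers was 17.8 to 106 CPM in FH, 1137 to 1318 CPM at 14 days and 1009.5 to 1670.1 CPM in dediHeps. The macrophage sum was 150.1 to 431 CPM in ISC-BOs, with Adgre1 and Marco at 0. In dediHep-BOs it was 386 to 1024 CPM, with Adgre1, Clec4f and Marco at 0. Most of these markers did not follow the sum. In ISC-BOs against FH, 1 of 3 macrophage genes tested was called higher and 2 lower, and the same held for dediHep-BOs against dediHep-SOs. Whether the sum tracks macrophages in organoids was not tested. The part of other cell types in the levels of the members was not tested, and in bulk libraries fewer cells of a type and less RNA per cell cannot be told apart.

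Across the 16 conditions the members did not share one pattern. Cps1 and Otc had means of 2139 and 3643 CPM in FH, and Cps1 was highest at 3 h, at 3630 CPM. Their means were 2.11 and 1.28 CPM at 14 days and 0.154 and 0.936 CPM in dediHep-SOs. At levels above 20 CPM, Arg1 was confined to hepatocytes before 2 days of culture, dediHep aggregates and 1 CLiP library. The exception was 1 library at 2 days, at 25.6 CPM. Asl was at 40.0 CPM in its lowest library. Asl had 43.6 to 189 CPM in dediHeps and 52.4 to 146 CPM in ISC-BOs, and from 1 day downwards in the order of conditions each overlapped the next. Arg2 was ordered differently. ISC-BOs, at 186 to 436 CPM, stood above every other condition without overlap, and FH and 3 h, both at 0, stood at the bottom.

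**Figure D1:**
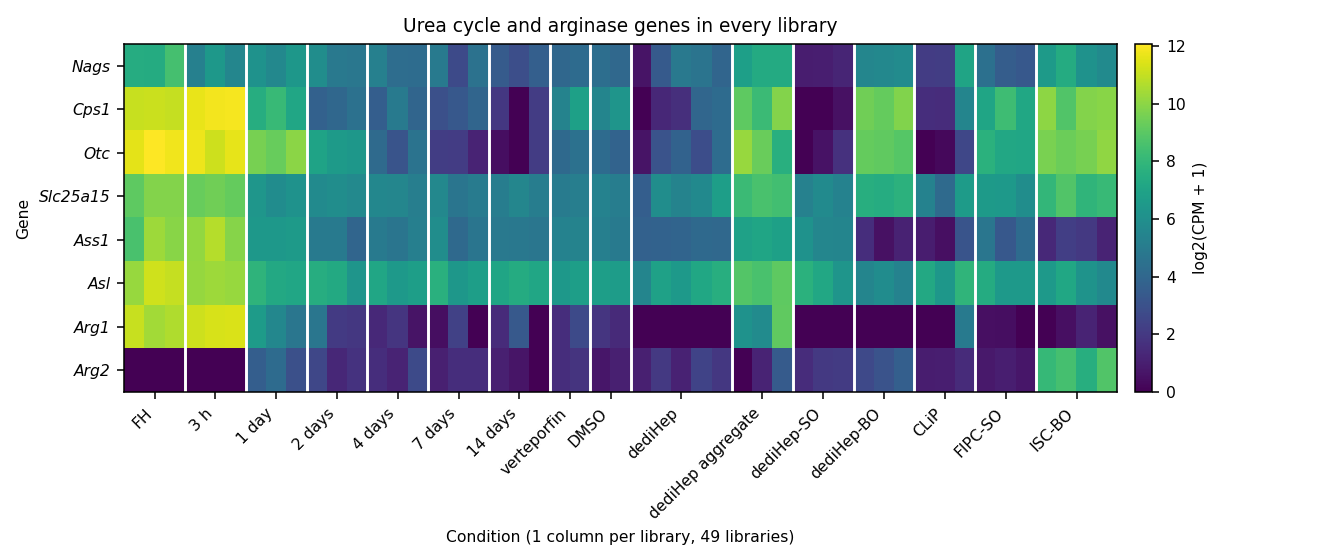
Level of each of the 8 genes (rows) in each of 49 libraries (columns, grouped by condition, white lines between conditions) as log2(CPM + 1), from dark (0) to yellow (about 12). FH is bright in all rows but Arg2, 3 h is bright in all rows but Arg2 and Nags, dediHep-SOs are dark for Nags, Cps1, Otc and Arg1, and ISC-BOs are the brightest for Arg2 and dark for Ass1 and Arg1.

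Counting of Ass1 is uncertain, because its processed pseudogene Gm5424 (chr10:62071123-62072362, plus strand) is listed separately and took between 20.9% and 33.3% of the counts of the pair in every condition. The sum of both was 1143 ± 602 CPM in FH, 18.6 ± 3.51 CPM in dediHeps and 3.26 ± 2.07 CPM in ISC-BOs, so that the order of these 3 conditions was that of Ass1 alone. Arg2 overlaps the gene Vti1b on the opposite strand, and the use of strand in counting is not given in the sources used here. Vti1b had 72.0 to 242 CPM in the 3 FH libraries, in which Arg2 had 0 counts. The highest counts, 3445 of Otc in 1 FH library and 3394 of Cps1 at 3 h, came to 84.1% and 82.9% of all possible UMI sequences of 6 bases, so that the highest levels of these genes are compressed. After a correction for shared UMI sequences Otc in FH was 5775 ± 1577 CPM in place of 3643 ± 609 CPM, and Cps1 at 3 h was 5732 ± 1189 CPM in place of 3629.8 ± 303 CPM.

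The time course asked when plated hepatocytes lose the cycle. At 3 h, 1 of 8 members was called lower (3.85% of all genes tested were). It was Nags, with 178, 173 and 366 CPM in FH and 36.9, 84.8 and 45.4 CPM at 3 h. The groups did not overlap, and the log2 fold change was -2.13 ± 0.51 (SE), FDR 0.00991. The call was lost without the highest FH library (-1.67, FDR 0.0629) and without the lowest 3 h library (-1.90, FDR 0.0507). Cps1, the entry enzyme, had 2154, 2211 and 2051 CPM in FH and 3288, 3737 and 3864 CPM at 3 h, every 3 h library above every FH library, with a log2 fold change of 0.74 ± 0.40 (SE), FDR 0.235, which did not pass the test. With the correction for shared UMI sequences its level was 2342 ± 35.7 CPM in FH and 5732 ± 1189 CPM at 3 h, a larger rise than without it. The other members were at log2 fold changes of -0.66 (Asl) to 0.56 (Arg1), none past the test, and Arg2 had no count in either group.

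At 1 day, 6 of 8 members were called lower (10.9% of all genes tested were) and Arg2 was called higher (6.57% were). Arg1, the cytosolic arginase, fell from 2101, 1361 and 1598 CPM in FH to 96.3, 46.8 and 25.4 CPM, with no overlap and a log2 fold change of -4.99 ± 0.79 (SE), FDR 3.99e-05. Cps1 fell to 181, 280.0 and 139 CPM, and its log2 fold change was -3.50 ± 0.44 (SE), FDR 2.42e-06. Otc, which had 3083, 4291 and 3555 CPM in FH, kept 777, 621 and 1004 CPM at 1 day, 22.0% of its FH mean, against 3.33% for Arg1 and 8.69% for Slc25a15. Its log2 fold change was -2.28 ± 0.41 (SE), FDR 0.000157, and without TMM factors it was -1.61, which is not called. Nags had a log2 fold change of -1.94 ± 0.49 (SE), FDR 0.00404, short of the fold threshold, and was called without FH replicate 1, FH replicate 2 or 1 day replicate 3 (-2.11 to -2.10).

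From 2 days on the 7 members of the liver cycle were all called lower at each time, at 2 days (12.1% of all genes), 4 days (12.4%), 7 days (12.8%) and 14 days (15.3%). The median over the 8 members was -4.58 at 2 days and -4.87 at 14 days, where the median of all genes tested was 0.04 at both. The members parted in how far they went. Otc went from 101 ± 22.7 CPM at 2 days through 16 ± 7.63 CPM at 4 days and 2.77 ± 1.27 CPM at 7 days to counts of 1, 0 and 3 at 14 days, with log2 fold changes against FH of -5.25, -7.91, -10.43 and -12.08. Cps1 went to counts of 8, 0 and 3 at 14 days (log2 fold change -10.04 ± 0.64 (SE), FDR 2.3e-11). Asl by contrast stayed near the level it had at 2 days, with 141 ± 57.3 CPM at 2 days and 151 ± 19.7 CPM at 14 days, and Slc25a15 had 54.6 ± 4.29 CPM and 37.3 ± 6.79 CPM. Ass1 had 24.7 ± 9.17 CPM at 2 days and 27.3 ± 1.73 CPM at 14 days. Steps between successive times were not tested. Nags at 2 days (log2 fold change -2.71) was not called without TMM factors (-1.92).

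Arg2 differed in the step to 1 day, when it appeared at low counts, and its mean then fell from 11.8 CPM at 1 day to 0.552 CPM at 14 days. It had counts of 26, 35 and 13 at 1 day, 12, 4 and 5 at 2 days, 5, 3 and 10 at 4 days, 3, 4 and 6 at 7 days and 3, 1 and 0 at 14 days, after 0 in all 6 libraries of FH and 3 h. Every library from 1 to 7 days thus held a count of Arg2, and the highest values were those of 1 day, at 11.3, 17.6 and 6.61 CPM. Set against a floor of 3 counts over the FH libraries, Arg2 was at least 10.0-fold higher at 1 day. At 2, 4 and 7 days the bounds were 2.53-fold, 2.5-fold and 1.42-fold. Only the bound at 1 day lay past the fold threshold (log2 3.33, against 1.34, 1.32 and 0.503). The calls rest on edgeR log2 fold changes of 7.41, 5.46, 5.40 and 4.65 (FDR 0.000503, 0.0161, 0.0168 and 0.0486), fitted against 0 counts in FH. Arg2 was not called at 14 days (FDR 0.168 by edgeR). Of all genes tested 9.21%, 11.4% and 13.2% were called higher at 2, 4 and 7 days. The call at 7 days was lost without FH replicate 3 (FDR 0.116). The macrophage markers, in cells that also use arginase, summed to 4.57 to 54.2 CPM at 1 day against 57.8 to 222 CPM in FH, and their part in the counts of Arg2 was not tested.

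**Figure D2:**
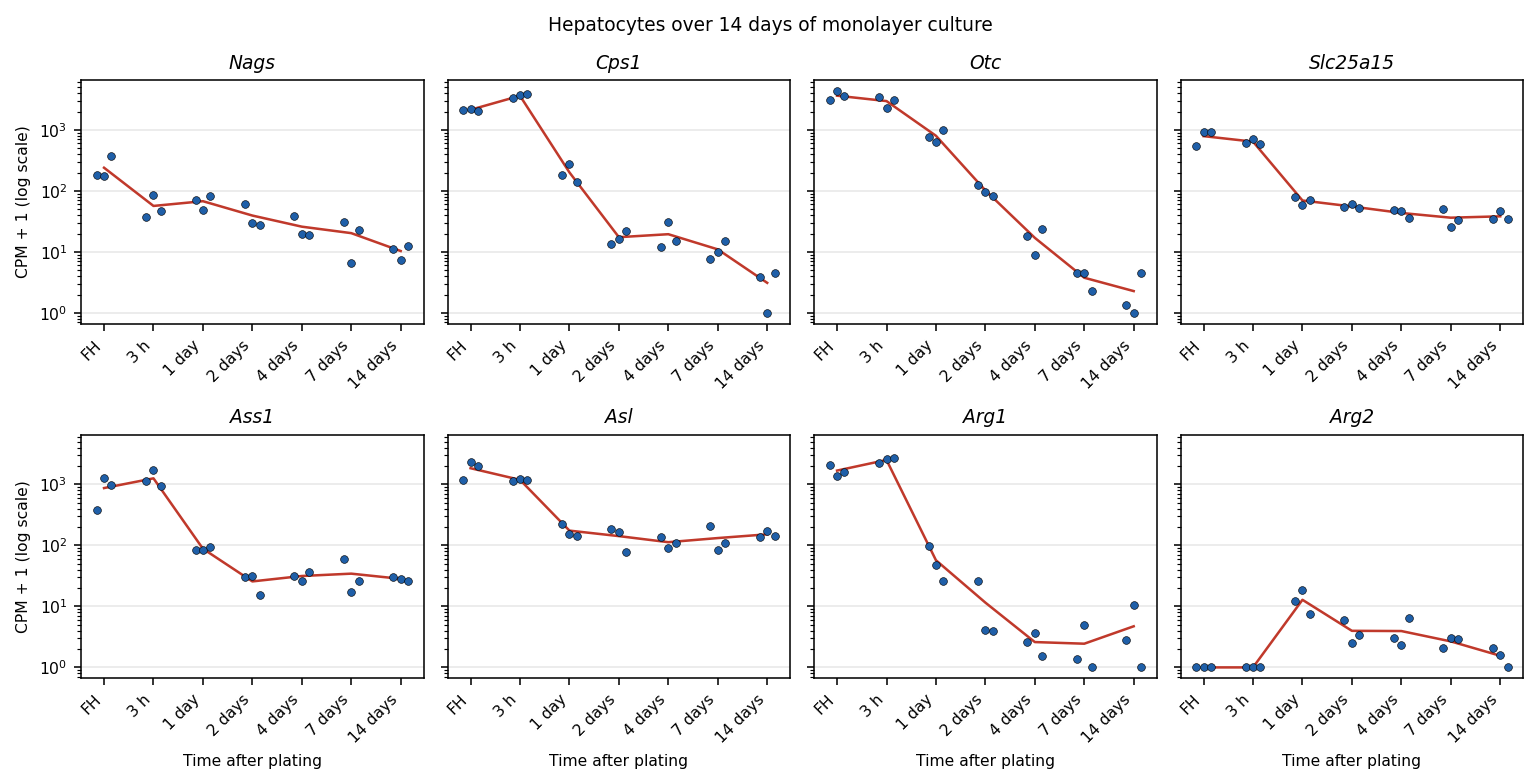
CPM + 1 on a log scale for each of the 8 genes in FH and at 6 times after plating, evenly spaced along the axis, with 1 point per library (n = 3 per time) and a line through the means. At 3 h Nags is already at 23.3% of its FH mean, from 1 day on the other liver members are low, Otc and Cps1 approach the axis at 14 days, and Arg2 leaves 0 at 1 day.

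In passaged dediHeps, Asl and Slc25a15 had means of 118 and 53.8 CPM. Cps1, Otc, Ass1 and Nags had means of 7.22, 9.01, 14.3 and 15.4 CPM. All 7 members tested were called lower than in FH (12.6% of all genes tested), with a median log2 fold change of -6.03 over them and 0.08 over all genes. Arg1 had 0 counts in all 5 dediHep libraries against 1781, 994 and 1549 in FH, and was at least 6600.4-fold lower (floor of 3 counts over the 5 libraries, FDR 3.15e-06). Cps1 had 0, 1.51, 2.11, 15 and 17.5 CPM and Otc had 0.559, 7.53, 12.7, 6.32 and 18.0 CPM in the 5 cultures. No dediHep library came near the lowest FH library, at 2051 CPM for Cps1 and 3083 CPM for Otc, and the log2 fold changes were -8.32 ± 0.97 (SE), FDR 5.93e-05 for Cps1 and -8.76 ± 0.71 (SE), FDR 4.78e-06 for Otc. The cultures differed among themselves. Replicate 1 was the lowest of the 5 for all 7 genes other than Arg1, and replicate 5 the highest for Cps1, Otc, Slc25a15 and Asl, whereas Ass1 was even, with 12.3, 13.1, 13.6, 16.6 and 16.1 CPM and a log2 fold change of -6.03 ± 0.41 (SE), FDR 1.68e-06. Arg2 was not tested here and had 1.12, 3.01, 1.21, 4.34 and 2.84 CPM, 29 counts in all.

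CLiPs were low in the same enzymes, and 6 of 7 members tested were called lower than in FH (11.4% of all genes). The comparison with dediHeps asked whether 2 routes to proliferating cells leave the same remnant, and it gave 0 of 6 members called by edgeR (3.04% of all genes in either direction). Ass1 alone, 1 of the 6, had an unadjusted p under 0.05, and DESeq2 called 1 member. A single library moved these results. CLiP replicate 3 had 132 CPM of Nags against 3.45 and 3.57 in the others, 28.9 CPM of Arg1 against 0 and 0, and 44.3 CPM of Cps1 against 1.97 and 1.89. The sum of 6 hepatocyte markers in the CLiP libraries was 2178 to 8525 CPM. Ass1 had 0.986, 0.420 and 7.68 CPM, each below every dediHep library, and the log2 fold change to dediHeps was -2.25 ± 0.79 (SE), FDR 0.185. Without CLiP replicate 3, Ass1 (-4.39, FDR 0.0137) and Otc (-5.60, FDR 0.09995) were called lower in CLiPs, Nags turned from 1.62 to -2.11, and Nags was called against FH (-6.05, FDR 6.56e-05, in place of -2.31, FDR 0.192). In CLiP replicates 1 and 2, Otc had counts of 0 and 1 and Ass1 counts of 2 and 2, all below the floor of 3 counts.

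Verteporfin, which blocks the action of Yap, was compared with DMSO after 7 days of culture. No member was called (0.269% of all genes in either direction), none of the 6 tested had an unadjusted p under 0.05, and DESeq2 called none. The log2 fold changes ran from -0.12 (Slc25a15) to 0.37 (Cps1), with SEs of 0.26 to 0.45. Cps1 had 40.8 and 115 CPM with verteporfin and 44.2 and 77.2 CPM with DMSO, and the groups overlapped. A missed threshold with 2 libraries a group does not show equal levels.

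Aggregation of dediHeps asked whether the mature program returns. Of the 7 members tested, 6 were called higher in dediHep aggregates than in dediHeps (4.39% of all genes), and the median log2 fold change was 3.22 against -0.07 for all genes. Arg1 rose from 0 counts in 5 libraries to 69.4, 55.1 and 548 CPM and was at least 878-fold higher (FDR 0.00376). The spread was wide, since aggregate replicate 3 held 1078 of the 1291 counts, and all 3 libraries were above all dediHep libraries. Cps1 had 542, 299 and 897 CPM (log2 fold change 6.32 ± 0.91 (SE), FDR 0.00204) and Otc had 1167, 634 and 197 CPM (log2 fold change 6.19 ± 0.75 (SE), FDR 0.000825). The library highest in Arg1 and Cps1 was the lowest in Otc, and no aggregate library overlapped the dediHeps in any of the 3 genes.

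Nags, Slc25a15 and Ass1 were more even among aggregates. Nags had 111, 164 and 164 CPM (log2 fold change 3.22 ± 0.66 (SE), FDR 0.0117), Slc25a15 had 301, 388 and 340.4 CPM (log2 fold change 2.68 ± 0.50 (SE), FDR 0.00783), and Ass1 had 118, 137 and 114 CPM (log2 fold change 3.10 ± 0.26 (SE), FDR 0.000125). Asl, at 452, 391 and 538 CPM, all above the dediHeps, missed the fold threshold (1.98 ± 0.39 (SE), FDR 0.00956). It was called when aggregates were matched to their dediHep culture by name (2.29, FDR 0.00581), which left the other 6 calls in place.

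Aggregates did not reach FH for every member. Nags, at 61.3% of its FH mean, differed by -0.79 ± 0.39 (SE), FDR 0.163, which did not pass the test, and Slc25a15, at 43.4%, by -1.29 ± 0.34 (SE), FDR 0.0168, short of the fold threshold. Otc (18.3%, log2 fold change -2.54), Ass1 (14.1%, -2.91), Asl (25%, -2.09) and Arg1 (13.3%, -3.02) were called lower than in FH, 4 of 7 tested against 9.78% of all genes. Cps1, at 27.1%, was at -1.99 ± 0.41 (SE), FDR 0.00425. After the correction for shared UMI sequences Otc was 665 ± 512 CPM in aggregates and 5775 ± 1577 CPM in FH, a smaller share than without it. Several of these values lay near the fold threshold. Without TMM factors Otc (-1.89) and Asl (-1.43) were not called, and Asl was not called without FH replicate 2 or aggregate replicate 1 or 2 (-1.99 to -1.90), whereas Cps1 was called without FH replicate 3 (-2.05) or aggregate replicate 3 (-2.37). This comparison and that of dediHeps with FH share the FH libraries.

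**Figure D3:**
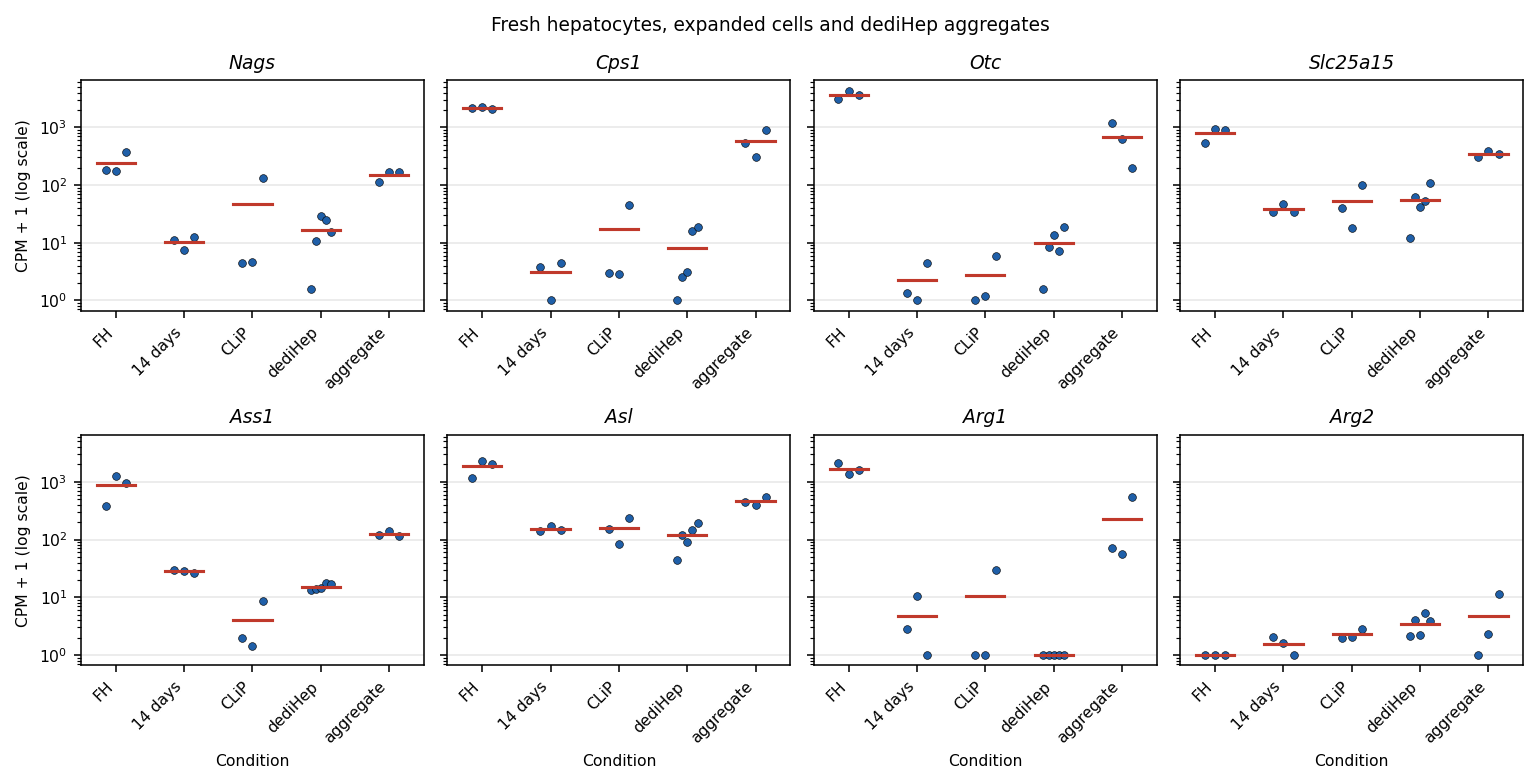
CPM + 1 on a log scale for each of the 8 genes in FH, 14-day cultures, CLiPs (n = 3 each), dediHeps (n = 5) and dediHep aggregates (n = 3), with points for libraries and bars for means. Aggregates stand between dediHeps and FH for every liver member, and 1 CLiP library stands above the other 2 for Nags, Cps1, Otc, Ass1, Asl, Slc25a15 and Arg1.

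The intestinal organoids set the question whether gut epithelium carries the same genes as liver. Adult ISC-BOs held transcripts of the mitochondrial steps and of Asl, and few of Ass1 and Arg1. Cps1 had 1025, 440.2, 909 and 984 CPM in ISC-BOs, 39.3% of the FH mean, and differed from FH by -1.40 ± 0.30 (SE), FDR 0.00237. Nags had 95.1, 171, 69.5 and 53.7 CPM (40.7% of FH, log2 fold change -1.36 ± 0.43 (SE), FDR 0.0206) and Slc25a15 had 254, 448, 240.2 and 280.0 CPM (38.7%, -1.43 ± 0.31 (SE), FDR 0.00228). All 3 were below FH without reaching the fold threshold, with every ISC-BO library below every FH library for Cps1, Nags and Slc25a15. The shares of FH depend on the scaling, and without TMM factors the means in ISC-BOs and FH were 908 and 1366 CPM for Cps1, 103 and 153 CPM for Nags, and 326 and 500.0 CPM for Slc25a15.

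Otc was called, at 789, 644, 779.6 and 1065 CPM and a log2 fold change of -2.20 ± 0.25 (SE), FDR 2.08e-05, though not without TMM factors (-1.39). The cytosolic enzymes were at larger log2 fold changes. Ass1 had 1.62, 3.76, 2.97 and 1.31 CPM in ISC-BOs against 382, 1264 and 967 CPM in FH (log2 fold change -8.49 ± 0.55 (SE), FDR 2.68e-07). Arg1 had counts of 0, 1, 3 and 1 against 1781, 994 and 1549 in FH (log2 fold change -11.43 ± 0.52 (SE), FDR 1.99e-08), and Asl had 91.4, 146, 72.0 and 52.4 CPM against 1168, 2325 and 2041 CPM (log2 fold change -4.42 ± 0.39 (SE), FDR 2.68e-06). In total 4 of 8 members were called lower (13.3% of all genes) and Arg2 was called higher (14.8%). Arg2 had 272, 362, 186 and 436 CPM in ISC-BOs after 0 counts in FH, at least 267-fold higher (FDR 3.13e-06), and it made up 99.8% of the 2811 arginase counts of ISC-BOs (exact 95% interval 99.6% to 99.9%, counting error only). Nags, Cps1, Otc and Slc25a15 together summed to 6811 ± 819 CPM in FH and 2062 ± 287 CPM in ISC-BOs, whereas Ass1, Asl and Arg1 summed to 4402 ± 673 CPM and 93.4 ± 41.0 CPM.

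Fetal FIPC-SOs had less of the mitochondrial steps. All 7 members tested were called lower than in FH (15% of all genes), with log2 fold changes of -3.46 for Cps1 and -4.50 for Otc, and 2 counts of Arg1 in 3 libraries made a ratio of 7241 in favour of FH (95% counting interval 2003 to 59809). Cps1 had 137, 319 and 145 CPM and Otc had 210.2, 150.0 and 141 CPM in FIPC-SOs, all below the ISC-BOs. From FIPC-SOs to ISC-BOs, 4 of 7 members were called higher (4% of all genes), namely Nags (2.81 ± 0.47 (SE), FDR 0.00225), Cps1 (2.02 ± 0.38 (SE), FDR 0.00478), Otc (2.27 ± 0.24 (SE), FDR 0.000143) and Arg2 (8.46 ± 0.49 (SE), FDR 9.33e-06). Arg2 was the extreme, with 0.780, 1.05 and 0.643 CPM in FIPC-SOs. Ass1 was called lower (2.62% of all genes), from 25.3, 9.11 and 17.4 CPM (-2.81 ± 0.47 (SE), FDR 0.00223), and Asl did not pass the test (-0.38 ± 0.37 (SE), FDR 0.601). The call of Cps1 lay at the fold threshold and was lost without FIPC-SO replicate 1 or 3, ISC-BO replicate 1, 3 or 4, or without TMM factors (1.83 to 1.99), while Slc25a15 (1.89 ± 0.30 (SE), FDR 0.00157) was called without FIPC-SO replicate 1 (2.02).

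**Figure D4:**
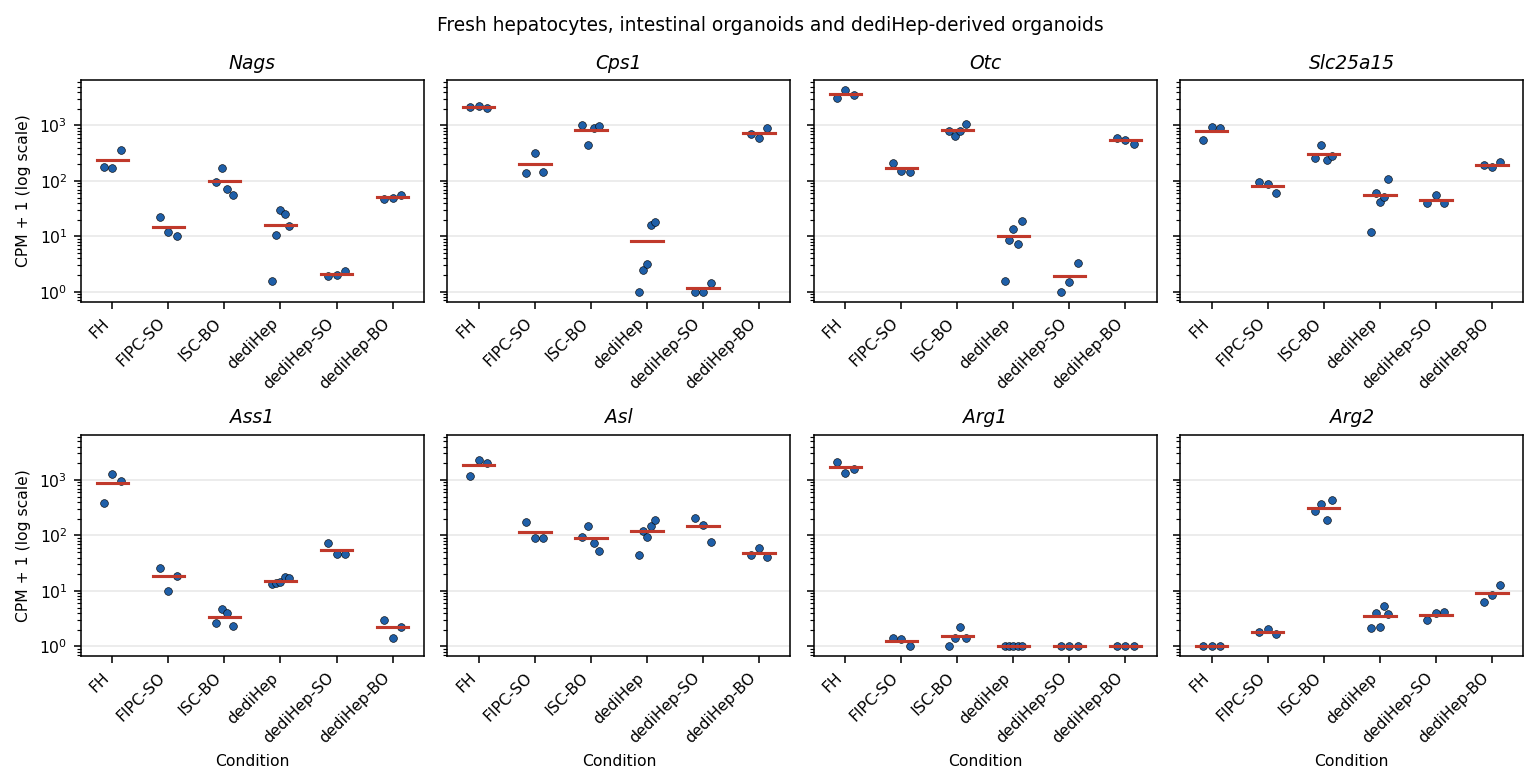
CPM + 1 on a log scale for each of the 8 genes in FH, FIPC-SOs, dediHep-SOs, dediHep-BOs (n = 3 each), ISC-BOs (n = 4) and dediHeps (n = 5), with points for libraries and bars for means. The 3 dediHep-BO libraries lie within the range of ISC-BOs for Cps1, below it for Otc and above dediHep-SOs for both, Ass1 is highest in FH and next in dediHep-SOs, Arg1 is seen in FH, and Arg2 stands out in ISC-BOs.

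Spherical organoids from dediHeps had fewer transcripts of Cps1, Otc and Nags than FIPC-SOs. Cps1 had counts of 0, 0 and 1 in dediHep-SOs against 352, 909 and 450 in FIPC-SOs, a ratio of 1462 (95% counting interval 262 to 57797, FDR 7.61e-05). Otc had counts of 0, 1 and 5 against 539, 428 and 439 (log2 fold change -7.58 ± 0.70 (SE), FDR 0.00016), and Nags had counts of 3, 2 and 3 against 54, 31 and 28 (log2 fold change -3.60 ± 0.55 (SE), FDR 0.00205). These 3 of 6 members tested were called lower (3.99% of all genes), and the carrier Slc25a15, with 38.2, 54.0 and 39.3 CPM against 94.4, 88.0 and 59.8 CPM, was not (-0.92 ± 0.31 (SE), FDR 0.0753). Ass1, with 71.0, 45.6 and 44.4 CPM, was above every FIPC-SO library without reaching the fold threshold (1.6 ± 0.41 (SE), FDR 0.0258).

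Against all 5 dediHep libraries, of which 3 share a culture name with them, dediHep-SOs had lower Nags (-3.75 ± 0.96 (SE), FDR 0.029) and lower Otc (-3.31 ± 1.08 (SE), FDR 0.0798), 2 of 5 members tested (4.65% of all genes). Both groups were low. The Nags call was lost without dediHep-SO replicate 1 or 2 (FDR 0.139 and 0.13), the Otc call without dediHep replicate 2, 3 or 5 or dediHep-SO replicate 1 or 2 (FDR 0.11 to 0.282), and with libraries matched by culture name neither gene passed the filter on low counts. Ass1 went up, from 12.3, 13.1, 13.6, 16.6 and 16.1 CPM in dediHeps, with no overlap. Its log2 fold change was 1.90 ± 0.31 (SE), FDR 0.00248, short of the threshold, and 2.02 (FDR 0.0544), which is called, with libraries matched by culture.

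Budding organoids of Cdx2-transduced dediHeps had transcripts of the mitochondrial steps again. Against dediHep-SOs, 4 of 7 members tested were called higher (5.6% of all genes) and Ass1 was called lower (5.68%). Cps1 had counts of 1461, 1360 and 2124 against 1 count over the 3 dediHep-SO libraries, a ratio of 5360.0 (95% counting interval 962 to 211751, FDR 1.01e-05). Otc had 597, 553 and 468 CPM against 0, 0.496 and 2.31 CPM (log2 fold change 9.27 ± 0.61 (SE), FDR 2.13e-05), and no library of one group overlapped the other for either gene.

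Nags rose to 46.1, 48.5 and 55.1 CPM (log2 fold change 5.47 ± 0.39 (SE), FDR 2.36e-05) and Slc25a15 to 189, 177 and 217 CPM (log2 fold change 2.18 ± 0.27 (SE), FDR 0.00037). Ass1 fell to counts of 4, 1 and 3 from 221, 92 and 96 (log2 fold change -5.40 ± 0.49 (SE), FDR 7.75e-05). Arg1 had 0 counts in all 6 libraries. Counts of Cdx2 itself were 354 to 825 in dediHep-BOs, 140 to 273 in dediHep-SOs, 4 to 395 in dediHeps, 780 to 1045 in FIPC-SOs, 630 to 857 in ISC-BOs and 0 in FH and CLiPs, and whether transcripts of the viral copy entered these counts is not given in the sources used here.

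Set beside ISC-BOs, dediHep-BOs differed in 1 of 6 members tested (1.71% of all genes were called lower). Cps1, with 709, 599.8 and 886 CPM inside the range of ISC-BOs, differed by -0.17 ± 0.27 (SE), FDR 0.738. Otc was lower in every dediHep-BO library than in every ISC-BO library, by -0.57 ± 0.20 (SE), FDR 0.122, and did not pass the test. Nags (-0.93 ± 0.37 (SE), FDR 0.167), Slc25a15 (-0.62 ± 0.25 (SE), FDR 0.171) and Asl (-0.90 ± 0.35 (SE), FDR 0.159) were lower by less than 1 on the log2 scale and did not pass the test, which does not show equal levels. The member called was Arg2, with 5.34, 7.50 and 11.7 CPM in dediHep-BOs and 272, 362, 186 and 436 CPM in ISC-BOs, without overlap, at -5.22 ± 0.41 (SE), FDR 6.08e-05. Arg2 was above dediHep-SOs, at 1.93, 2.97 and 3.24 CPM, by 1.64 ± 0.48 (SE), FDR 0.0296, short of the fold threshold. Ass1 was not tested against ISC-BOs, as both groups were near the floor, with 8 counts over 3 and 22 over 4 libraries.

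The step from spherical to budding organoid could be compared between the 2 origins. A test of the difference of differences in a single edgeR fit of the 4 groups, chosen after the data were seen, called 5 of 7 members (9.45% of all genes). The rise of Nags, Cps1 and Otc was larger in dediHep organoids than in intestinal ones, the fall of Ass1 was larger, and the rise of Arg2 was smaller, with the step of Cps1 resting on 1 count in dediHep-SOs. Slc25a15, with steps of 2.17 in dediHep organoids and 1.90 in intestinal ones, and Asl, with -1.58 and -0.38, did not pass this test.

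**Figure D5:**
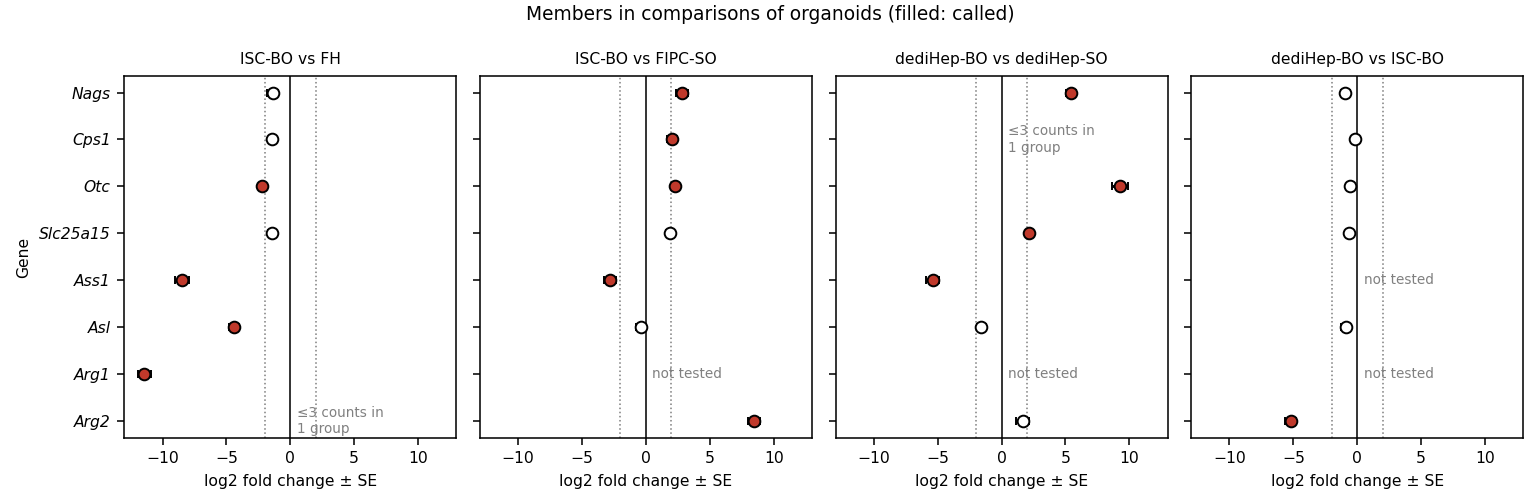
Log2 fold change ± SE of each of the 8 genes in 4 comparisons of organoids, with filled points for called genes and dotted lines at a log2 fold change of -2 and 2. In ISC-BOs against FH the mitochondrial members lie between -2.20 and -1.36 and Ass1 and Arg1 below -8, and in dediHep-BOs against ISC-BOs only Arg2 is filled among the 6 members tested. Members with 3 counts or fewer in a group are not drawn.

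Genes with the most similar pattern were sought among 12778 genes by Pearson's r of mean log2 CPM over the 16 conditions, a description without a test, since conditions share origin and culture. For Cps1 they were Aadac (r = 0.962), Otc (0.945) and Ces2d-ps (0.921), and for Otc Aadac (0.960), Mttp (0.949), which loads lipoproteins in liver and gut, and Cps1 (0.945). Nags was closest to A1cf (0.911), Vwce (0.899) and Mfsd4b3 (0.898), and Slc25a15 to Pbld2 (0.980), Leap2 (0.979) and Suclg1 (0.967). The cytosolic enzymes had other neighbours. Arg1 was closest to Saa4 (0.995), Acsm1 (0.994) and Gnat1 (0.992), Asl to Nmrk1 (0.973), Abca8b (0.968) and Masp1 (0.965), and Ass1 to its pseudogene Gm5424 (0.989), Rcl1 (0.897) and Abca6 (0.892). Arg2 was closest to Slc5a11 (0.925), 1700097N02Rik (0.913) and Rbp7 (0.910).

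The wider network of nitrogen metabolism was followed with 69 genes in 7 lists. In dediHeps against FH, 21 of 55 tested were called lower (12.6% of all genes) and 9 higher (13.1%, a share near that of the network). Mitochondrial carriers and enzymes of nitrogen supply had 7 of 12 lower, the pericentral genes of glutamine synthesis 2 of 3 lower, and the genes of ornithine and proline metabolism 3 of 5 lower and 2 higher. Transporters of arginine, other cationic amino acids and glutamine had 6 of 11 higher and 3 lower, and the genes of polyamines, creatine, nitric oxide and agmatine had 3 of 12 lower. Known regulators had 3 of 9 lower.

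Of the genes with the smallest p in these lists, Slc7a1, a cationic amino acid transporter, had 247 ± 139.5 CPM in dediHeps against 2.68 ± 1.47 CPM in FH (log2 fold change 6.35 ± 0.66 (SE), FDR 2.71e-05). The glutamate transporter Slc1a2, which marks pericentral hepatocytes, had 2 counts over 5 dediHep libraries against 645 over 3 FH libraries, and Agmat, which hydrolyses agmatine, 1 count against 368.

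In dediHep aggregates against dediHeps, 4 of 51 network genes were called higher (4.39% of all genes) and 2 lower (5.11%). The share of the network called lower did not exceed that of all genes. The glucagon receptor Gcgr, through which glucagon raises urea synthesis, had 97.7 ± 36.9 CPM in aggregates and 0.531 ± 0.646 CPM in dediHeps (7.26 ± 0.62 (SE), FDR 0.00014), and Slc7a2, the hepatic transporter of cationic amino acids, had 279 ± 102 CPM and 16.3 ± 11 CPM (4.11 ± 0.49 (SE), FDR 0.000682). The 2 called lower were the glutamine transporters Slc1a5 (-2.04 ± 0.63 (SE), FDR 0.052) and Slc38a1 (-2.46 ± 0.91 (SE), FDR 0.09).

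In ISC-BOs against FH, 23 of 57 network genes were called lower (13.3% of all genes) and 10 higher (14.8%, a share near that of the network). The list of mitochondrial nitrogen supply had 9 of 12 lower. The transporters had 6 of 12 higher, led by Slc7a1 (395 ± 64.0 CPM against 2.68 ± 1.47 CPM in FH, 7.08 ± 0.47 (SE), FDR 3.3e-07) and Slc1a5 (210.2 ± 38.2 CPM against 1.59 ± 0.690 CPM, 6.94 ± 0.49 (SE), FDR 5.65e-07), and 3 of 12 lower. Of the 3 pyrimidine genes 1 was higher and of 9 regulators 4 were lower. Among the transporters called lower were Slc38a3, a glutamine transporter of liver, with 1 count over 4 ISC-BO libraries against 7769 over 3 FH libraries, and Slc7a2 (8.38 ± 1.74 CPM against 995 ± 254 CPM, -6.93 ± 0.37 (SE), FDR 6.01e-08). In dediHep-BOs against dediHep-SOs 6 of 49 were called higher (5.6% of all genes) and 1 lower (5.68%).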

How the data were processed

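RNA of 49 libraries was measured by CEL-seq2, which counts the 3′ ends of transcripts with unique molecular identifiers (UMIs) of 6 bases. The authors deposited raw UMI counts per gene, in a single table of 46078 Ensembl identifiers, made with the celseq2 pipeline according to the study's methods. Per the labels, the submitters' processing notes name bcl2fastq 2.20, Bowtie2 2.3.1, HTSeq 0.6.0 and GRCm38, and the use of strand in counting is not given in the sources used here. All columns were assigned to samples by their names, with 0 left out. Library totals were 861047 to 3872936 counts, and intervals cover counting error only.

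Counts were tested with edgeR 4.0.16 in R 4.3.3 (TMM factors, filterByExpr with a minimum count of 10 and a minimum total of 15, quasi-likelihood test, Benjamini-Hochberg adjustment over all genes tested). The time course was 1 fit of 7 groups and each of 13 other comparisons a fit of its own 2 groups. Genes were called when FDR was below 0.1 and the log2 fold change was past 2 in either direction. The procedure was tested on simulated data. CPM were scaled over all 49 libraries. All 8 members were named in every comparison, together with the 2 called network genes of smallest p in each direction in 3 comparisons and the 3 genes most like each member among those with a mean of at least 10 CPM in a condition. The result of 1 network gene named by this rule is not reported here. Members and lists were chosen with earlier results of these data known. Alternatives were DESeq2 1.42.0, other scaling and filters, a UMI correction, 1 fit of all libraries, replicate blocks and leaving out each library. In 54 pairs of replicates none agreed within sampling noise (chi-square per degree of freedom 6.29 to 74.5).

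Aggregates and dediHeps share culture names in the labels, and the culture block matched them by these names. The main fit held no block. Deviations of the 3 pairs correlated at 0.178 to 0.357. Pairs that share only a number spanned -0.582 to 0.627, so that the correlation cannot decide whether the names pair the libraries. Sequences are from RefSeq on GRCm38.p6 and gene positions from GENCODE M21.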

Additional observations from a re-analysis of the deposited data

Results flagged for a closer look

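The change from spherical to budding organoids differed between dediHep-derived and intestinal organoids for 5 members, by a test of the difference of the log2 fold changes in 1 edgeR fit of 4 groups. For Cps1 the change was 11.93 in dediHep organoids and 2.05 in intestinal organoids, a difference of 9.88 (FDR 9.29e-06), where the former rests on 1 count in dediHep-SOs and is no bound. For Otc it was 9.26 and 2.28, a difference of 6.97 (FDR 1.98e-05), and for Nags 5.46 and 2.82, a difference of 2.64 (FDR 0.0254). Ass1 fell by 5.41 and 2.80, a difference of -2.61 (FDR 0.0378). Arg2 rose by 8.48 in intestinal organoids against 1.64 in dediHep organoids, a difference of -6.84 (FDR 4.54e-05). No library stood far from the others in the 15 sets of values tested, each 1 member in dediHeps or in ISC-BOs, where chance flags about 1 in 20. Conditions of 2 or 3 libraries, CLiPs among them, were not tested in this way.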

How the results depend on the processing

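Counts of members called stayed within 1.5 times the reported count in 165 values under alternatives that kept all libraries and left that range in 6. These were dediHep aggregates against FH without TMM factors (2 in place of 4), CLiPs against dediHeps with no low-count filter (1), with DESeq2 (1) and in 1 fit of all libraries (3, in place of 0), ISC-BOs against FH at FDR under 0.05 with no fold threshold (8 in place of 5), and dediHep-SOs against dediHeps with the culture block (1 in place of 2). Without TMM factors the median of all genes against FH, 3 h aside, moved from between -0.04 and 0.18 to between 0.61 and 1.08. At 3 h it moved from -0.07 to -0.15. Slc25a15 changed sign in CLiPs against dediHeps, from -0.02 to 0.010 with RLE factors, 0.013 with DESeq2, 0.0046 with the UMI correction and 0.53 with the replicate block, and in dediHep-SOs against dediHeps from -0.29 to 0.51 with the culture block. The cause was not tested. Of the mean levels of a member in a condition, 22 moved by more than 1 SD with the UMI correction and 16 without TMM factors.

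Leaving out 1 library at a time, the members called ranged from 0 to 1 at 3 h, 0 to 2 in CLiPs against dediHeps and 0 to 3 in dediHep-SOs against dediHeps. Fold changes that changed sign ranged, in CLiPs against dediHeps, from -1.87 to 1.72 for Cps1, -2.11 to 2.17 for Nags and -0.91 to 0.41 for Slc25a15. With verteporfin they ranged from -0.53 to 0.92 for Cps1, -0.23 to 0.034 for Asl, -0.24 to 0.089 for Nags and -0.25 to 0.0032 for Slc25a15, in dediHep-SOs against dediHeps from -0.043 to 0.61 for Asl and -0.55 to 0.14 for Slc25a15, and against FIPC-SOs from -0.046 to 0.65 for Asl. Where 1 library is left of a pair, it was assumed to vary like the other group.

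With the replicate block, members called numbered 7 in place of 6 in aggregates against dediHeps, 5 in place of 4 in aggregates against FH and 7 in place of 6 in CLiPs against FH, and no other comparison beyond dediHep-SOs against dediHeps changed its count. The latter share culture names too, but their deviations correlated at -0.494 to 0.044, and 95 pairs that share only a number, verteporfin and DMSO included, correlated at -0.582 to 0.627. Depth limits Arg1 in all organoids and Arg2 at 14 days and in FIPC-SOs, where libraries held at most 3 counts each. The depth of FH also limits Arg2 at 2, 4 and 7 days, where its mean lay below the floor of 3 counts in every FH library.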
